A study of Homo sapiens with 6 samples.

Results

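Expression of 37 genes of cholesterol and fatty acid synthesis was compared between lenalidomide-resistant and control myeloma cells. The genes were chosen by name for their place in sterol synthesis, in its control by the SREBP transcription factors, in sterol transport and storage, or in fatty acid synthesis. All 37 were among the 12760 genes with deposited values. The cells were MM.1S, a human line grown from a multiple myeloma, the tumour that arises from plasma cells. Lenalidomide is an oral drug for this disease. It binds cereblon and so alters which proteins a ubiquitin ligase marks for breakdown. The LenR group was kept in lenalidomide, starting at 10 nM with a 10-fold increase each month for 3 months, and the WT group was kept in the solvent DMSO over the same time. Both groups carry the genotype label WT, and each had 3 RNA-seq libraries made from total RNA. The labels call the replicates biological without saying that resistant lines were raised separately, so the p-values measure only the spread between these samples. Whether drug was present at harvest is not stated, and current exposure and selection cannot be told apart.

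Cholesterol is built from acetyl-CoA. Early steps make mevalonate, isoprenoid units and then squalene, and late steps oxidise squalene, close its rings and trim the product to cholesterol. When membrane sterol falls, SCAP carries the membrane-bound precursors of SREBP-1 and SREBP-2 to the Golgi, where they are cut into active transcription factors. The INSIG proteins hold SCAP back when sterol is plentiful. SREBP-2 mainly drives sterol genes, and SREBP-1 mainly drives genes that make, desaturate and elongate fatty acids. Plasma cells and myeloma cells hold a large secretory membrane system that these lipids form.

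Reads worked out from the deposited values came to between 14500140 and 17387914 per library, with between 64 and 35977 reads for each of the 37 genes in a library. The first principal component (58.1% of the variance) separated the groups. On the second (26.8%), WT replicate 3 (−14.0) and LenR replicate 2 (−13.7) stood apart from the other libraries. LenR replicate 3 lay at the opposite end (12.7), beyond WT replicates 1 and 2 and LenR replicate 1 (2.62 to 6.62). The plasma cell genes SDC1, TNFRSF17, XBP1, IRF4, PRDM1 and MZB1 summed to between 1816 and 1879 FPKM (fragments mapped per kilobase of gene, corrected for library depth) in the WT libraries and to between 2155 and 2374 FPKM in the LenR libraries. In the test described in the next paragraph, 4 of these 6 were higher in LenR: PRDM1 (log2 fold change 0.49, limma adjusted p = 0.015), SDC1 (0.45, 0.030), XBP1 (0.36, 0.020) and IRF4 (0.33, 0.022). These changes were about as large as those of several lipid genes below, and their part in the lipid values was not tested. Of 16 marker genes of T cells, myeloid cells, epithelium or stroma and red cells, 3 had values: CD3E at no more than 2.90 FPKM, COL1A1 at no more than 0.43 FPKM and HBB at no more than 8.31 FPKM in any library.

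Of the 37 genes, 36 averaged at least 1 FPKM over the 6 libraries and were tested with limma on log2(FPKM + 1). In this test 10 of the 36 passed an adjusted p of 0.05, which is 27.8%, against 15.1% of all 11276 genes tested. SQLE, SREBF1, NPC2, FADS1, SCD and MVK were higher in LenR, where 8.57% of all genes were called higher. ACSL3, HMGCS1, FADS2 and HSD17B7 were lower in LenR, where 6.57% of all genes were called lower. The groups did not overlap in 17 of the 36 genes, against 34.5% of all genes tested. The median log2 fold change (LenR over WT) of the 36 genes was −0.01, against −0.0023 over all genes tested. The 10 calls were thus spread over every functional group and went both ways within each arm of the synthesis pathway, as the plot of fold changes by pathway step shows. In bulk RNA, fewer cells that express a gene and less of its RNA per cell cannot be told apart.

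**Figure D1:**
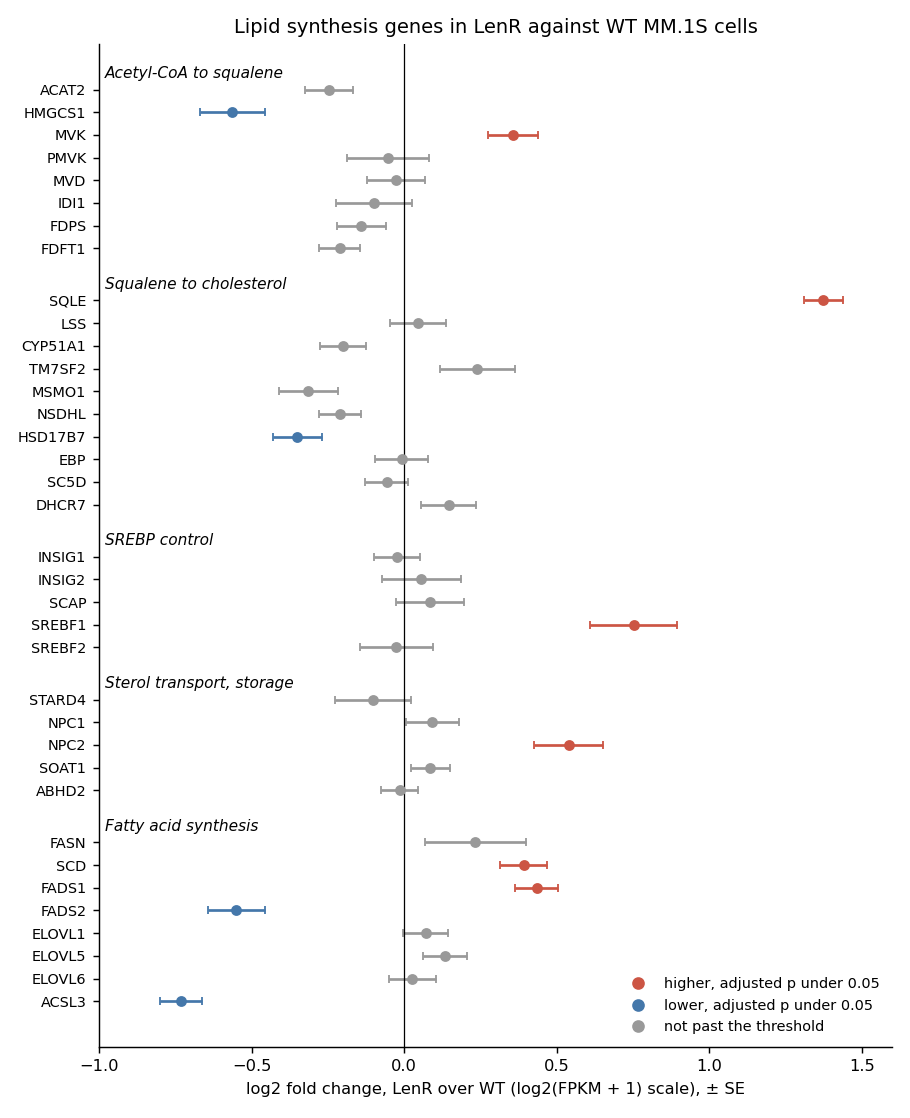
The log2 fold change (LenR over WT, on the log2(FPKM + 1) scale, x axis) is shown for the 36 tested genes with its standard error, ordered by pathway step, with colours for the 10 genes past the adjusted p threshold. SQLE at 1.37 lies far to the right of the other late sterol genes, while 7 of the 8 early genes lie left of 0.

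Among the 8 early sterol genes, HMGCS1 fell and MVK rose, and the other 6 did not pass the test. HMGCS1, which condenses acetyl-CoA and acetoacetyl-CoA to HMG-CoA, was at 81.1, 79.9 and 67.5 FPKM in WT replicates 1 to 3 and at 51.0, 45.9 and 56.8 FPKM in LenR replicates 1 to 3. The lowest WT library lay above the highest LenR library. The level fell by 0.56 on the log2 scale (SE 0.11, limma adjusted p = 0.0099). An antisense gene model, AC114947.2, overlaps HMGCS1. MVK, the mevalonate kinase, was at 22.4, 24.3 and 23.1 FPKM in WT and at 32.1, 31.3 and 27.0 FPKM in LenR. All LenR libraries were above all WT libraries, with LenR replicate 3 nearest to WT (log2 fold change 0.36, SE 0.08, limma adjusted p = 0.024).

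MVK was alone among the early genes in having a value above 0: the other 7 ranged from −0.56 to −0.03, with a median of −0.14. The next genes after HMGCS1 in size were ACAT2, which joins acetyl-CoA units (log2 fold change −0.25, limma adjusted p = 0.076), and FDFT1, the squalene synthase (−0.21, adjusted p = 0.077). FDFT1 values were between 126 and 132 FPKM in WT and between 109 and 114 FPKM in LenR, without overlap. FDPS, which makes farnesyl diphosphate, had the highest level of the sterol genes at 388 ± 6.16 FPKM in WT and 352 ± 19.5 FPKM in LenR (mean ± SD, n = 3), with a log2 fold change of −0.14 (adjusted p = 0.31). The isomerase IDI1 (−0.10), the kinase PMVK (−0.05) and the decarboxylase MVD (−0.03) overlapped between groups. The call on MVK was lost in 8 of 21 alternative analyses, among them 5 of the 6 that dropped a single library. Dropping a WT library gave limma adjusted p-values of 0.11, 0.061 and 0.054 for replicates 1, 2 and 3, and dropping LenR replicate 1 or 2 gave 0.092 and 0.060.

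Among the 10 late sterol genes, SQLE rose and HSD17B7 fell. SQLE, the squalene epoxidase that catalyses the first oxygen-requiring step, was at 11.5, 11.3 and 12.1 FPKM in WT and at 30.6, 33.0 and 31.6 FPKM in LenR. The libraries within a group lay close together and far from those of the other group. The mean rose 2.73-fold (log2 fold change 1.37, SE 0.06, limma adjusted p = 3.6e-05). No other gene of the 36 moved this far, and SQLE went from rank 33 to rank 23 of the 37 genes by level.

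The enzymes on either side of SQLE did not pass the test. FDFT1, which makes its substrate, is given above, and LSS, which cyclises its product to lanosterol, averaged 30.6 ± 2.13 FPKM in WT against 31.6 ± 3.10 FPKM in LenR (a log2 difference of 0.04, limma adjusted p = 0.81). Within each library, the SQLE level divided by that of FDFT1 was 0.090 ± 0.0040 in WT and 0.284 ± 0.0094 in LenR. The SQLE level divided by that of LSS was 0.381 ± 0.027 in WT and 1.01 ± 0.114 in LenR, so SQLE went from well below LSS to about its level.

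HSD17B7, a reductase of the sterol demethylation complex, was at 39.3, 35.8 and 33.6 FPKM in WT and at 28.8, 26.6 and 29.1 FPKM in LenR. The groups did not overlap, and the level fell by 0.35 on the log2 scale (SE 0.08, limma adjusted p = 0.022). The call was lost when replicate 1 or 2 of either group was dropped: the limma adjusted p was then 0.11 and 0.081 for the WT libraries and 0.066 and 0.058 for the LenR libraries. Reads from its pseudogenes HSD17B7P1 and HSD17B7P2 could count towards it, depending on how multiply matching reads were treated, which is not given in the sources used here. The other members of the demethylation steps stood just outside the threshold or beyond it: MSMO1, the sterol-C4 methyl oxidase (log2 fold change −0.31, limma adjusted p = 0.068), NSDHL, a sterol dehydrogenase (−0.21, 0.080), and CYP51A1, the lanosterol demethylase (−0.20, 0.12). MSMO1 values were between 121 and 140 FPKM in WT and between 101 and 118 FPKM in LenR. In MSMO1, NSDHL and CYP51A1 the groups did not overlap.

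TM7SF2 and DHCR7, both sterol reductases, had log2 fold changes of 0.24 and 0.15 and overlapped between groups. The isomerase EBP (−0.01) and the desaturase SC5D (−0.06) also overlapped, at 181 ± 3.24 FPKM and 7.59 ± 0.534 FPKM in WT. Apart from SQLE, the 9 late genes ranged from −0.35 to 0.24 with a median of −0.06, and 6 of them were below 0. Taking early and late steps as one list of 18 genes, 13 were below 0 (72.2%), against 50.5% of all genes tested. Among these, EBP, MVD, PMVK, SC5D and IDI1 had values smaller than their standard errors. EBP, MVD and PMVK were above 0 when WT replicate 3 and LenR replicate 2 were left out, so the share rests partly on values near 0. Of the 18, 2 were called higher and 2 lower (22.2% in either direction, against 15.1% of all genes tested). The early genes had a median log2 fold change of −0.12 and the late genes one of −0.03.

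**Figure D2:**
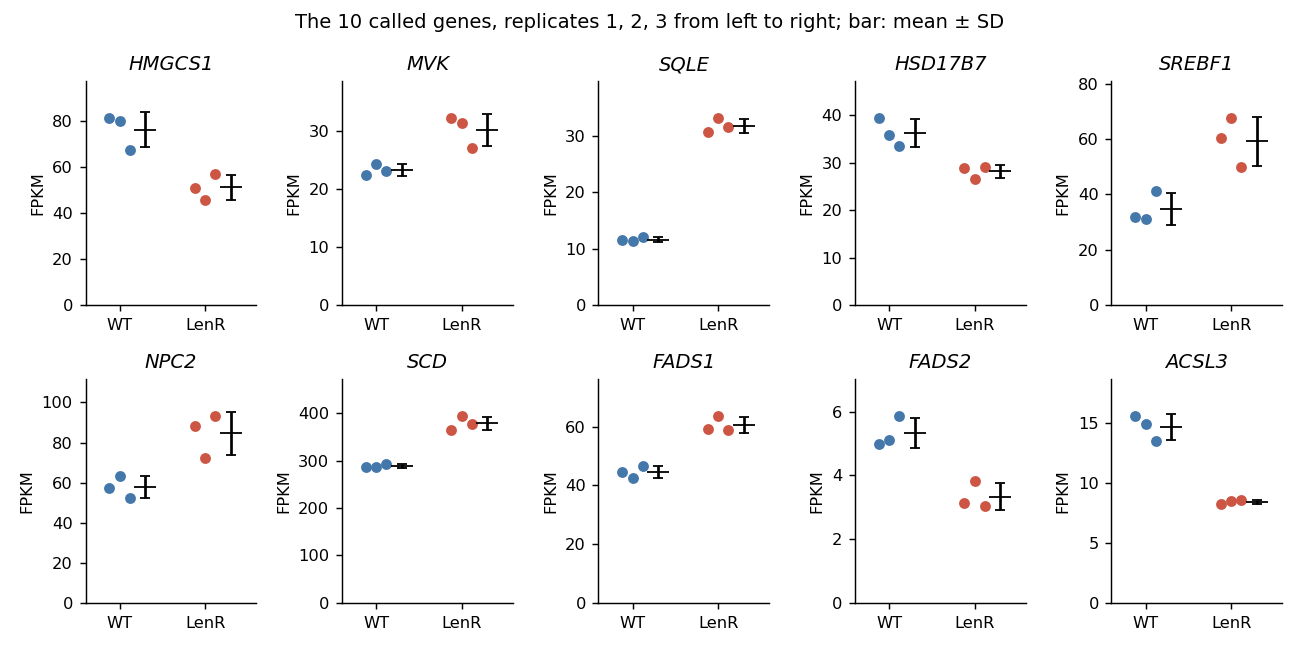
The FPKM value of each of the 10 called genes is shown for every library (points, replicates 1 to 3 from left to right) with the group mean ± SD (bars). In each panel the 3 LenR points lie wholly above or wholly below the 3 WT points, with SQLE, at 11.3 to 12.1 in WT and 30.6 to 33.0 in LenR, having the widest gap relative to its level.

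Of the 5 SREBP control genes, SREBF1 rose and the other 4 did not pass the test. SREBF1, which encodes SREBP-1, was at 32.0, 31.0 and 41.3 FPKM in WT and at 60.3, 67.4 and 49.7 FPKM in LenR. The LenR libraries were all higher, and the highest library of WT (replicate 3) and of LenR (replicate 2) were those that stand apart on the second component. The mean rose 1.70-fold (log2 fold change 0.75, SE 0.14, limma adjusted p = 0.00997). The log2 fold change was 0.78 without these 2 libraries (adjusted p = 0.0039), and the call was lost without LenR replicate 1 (0.73, adjusted p = 0.057).

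SREBF2, which encodes SREBP-2, was at 126, 124 and 150 FPKM in WT and at 130, 149 and 115 FPKM in LenR, with full overlap. Its log2 fold change was −0.03 (limma adjusted p = 0.92), with a sign that depended on the library left out and on the scaling. SREBF2 transcripts were thus more abundant than those of SREBF1 in every library. The level of SREBF1 divided by that of SREBF2 was 0.259 ± 0.0135 in WT and 0.450 ± 0.0162 in LenR. This ratio varied less between libraries of a group than either gene did, and both genes were high in WT replicate 3 and LenR replicate 2. SREBF1 overlaps RAI1 on the other strand.

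INSIG1, which retains SCAP in the endoplasmic reticulum, was at 342, 340 and 328 FPKM in WT and at 332, 324 and 338 FPKM in LenR. Its log2 fold change of −0.02 (SE 0.07, limma adjusted p = 0.88) was smaller than its standard error, and it changed sign under quantile normalization. INSIG2 had a level of 12.1 ± 1.68 FPKM in WT (log2 fold change 0.06), and SCAP one of 34.7 ± 4.15 FPKM (0.08). INSIG2 changed sign when WT replicate 3 or LenR replicate 3 was left out.

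The promoters of SREBF1 and SREBF2 are shown because the first gene rose and the second did not pass the test, together with those of HMGCS1, which fell, and SCD, which rose. Each sequence lies upstream of the outermost RefSeq start listed for the gene and of its GENCODE 29 gene model. It is given in GRCh38.p14 and read 5′ to 3′ on the gene's strand. Promoters of any start further inside a gene are not shown. Capitals mark matches on either strand to TCACNCCAC, CCAAT or GGGCGG. TCACNCCAC is a form of the sterol element that SREBPs bind, CCAAT the box bound by NF-Y and GGGCGG the GC box bound by Sp1.
SREBF1, chr17:17837003-17837236, minus strand: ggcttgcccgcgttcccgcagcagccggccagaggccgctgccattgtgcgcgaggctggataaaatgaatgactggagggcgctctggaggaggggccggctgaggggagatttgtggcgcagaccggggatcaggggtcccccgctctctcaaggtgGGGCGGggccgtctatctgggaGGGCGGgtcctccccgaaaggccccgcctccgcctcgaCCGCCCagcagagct
SREBF2, chr22:41832855-41833078, plus strand: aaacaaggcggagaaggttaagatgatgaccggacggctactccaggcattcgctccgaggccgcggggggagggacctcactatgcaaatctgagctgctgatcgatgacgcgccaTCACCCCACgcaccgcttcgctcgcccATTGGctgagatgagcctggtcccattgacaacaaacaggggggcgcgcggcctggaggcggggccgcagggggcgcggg
HMGCS1, chr5:43313513-43313662, minus strand: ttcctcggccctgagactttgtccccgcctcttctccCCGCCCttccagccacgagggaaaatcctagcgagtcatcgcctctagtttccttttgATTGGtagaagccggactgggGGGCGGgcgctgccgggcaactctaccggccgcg
SCD, chr10:100346983-100347123, plus strand: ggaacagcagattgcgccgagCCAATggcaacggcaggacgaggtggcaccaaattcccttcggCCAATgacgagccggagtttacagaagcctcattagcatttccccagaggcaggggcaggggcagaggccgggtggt

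No 2 matches overlapped in these 4 sequences. The SREBF2 sequence held 1 match to TCACNCCAC and 1 to CCAAT, and the SREBF1 sequence held 3 matches to GGGCGG alone. HMGCS1 held 1 match to CCAAT and 2 to GGGCGG, and SCD held 2 to CCAAT. In the full 250 bases before each RefSeq start, 33 of the 37 genes had a sequence, and ACAT2, FASN, FDFT1 and SQLE did not. TCACNCCAC was found before 1 of the 33, SREBF2, and before 1.09% of all 27305 genes with a promoter sequence. CCAAT was found before 24 of the 33 (72.7%), against 37.0% of all genes, and before 13 of the 15 sterol synthesis genes with a sequence. GGGCGG was found before 31 of the 33 (93.9%), against 46.2% of all genes. The 27305 genes were not limited to the 12760 with deposited values, as the 33 were. These shares therefore do not compare like sets, and a trait of lipid genes cannot be read from them. Genes may have more than 1 start, and a gene counted when any start had a match. A match is a run of letters and not a measured binding site. Sites with other letters, or outside the bases searched, would be missed, so a gene without a match may still have a site.

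Of the 5 sterol transport and storage genes, NPC2 rose and the other 4 did not pass the test. NPC2, the lysosomal protein that hands cholesterol to NPC1, was at 57.4, 63.3 and 52.6 FPKM in WT and at 88.3, 72.5 and 93.2 FPKM in LenR. The groups did not overlap, and LenR replicate 2 was nearest to WT. The log2 fold change was 0.54 (SE 0.11, limma adjusted p = 0.016), and dropping replicate 1 of WT (0.062) or of LenR (0.077) ended the call. NPC2 shares its locus with ISCA2 on the other strand. NPC1, the lysosomal membrane partner, was at 12.7 ± 1.15 FPKM in WT and 13.6 ± 1.06 FPKM in LenR (0.09, adjusted p = 0.55), so the pair differed in whether the change passed the test, while the difference between the 2 genes was not tested. SOAT1, which esterifies cholesterol for storage (0.09), the sterol carrier STARD4 (−0.10) and the hydrolase ABHD2 (−0.02) all overlapped between groups.

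The fatty acid arm held 9 genes, of which 8 were tested: SCD and FADS1 rose, FADS2 and ACSL3 fell, and the other 4 did not pass the test. SCD, which places the first double bond in saturated fatty acids, was at 286, 286 and 293 FPKM in WT and at 366, 394 and 376 FPKM in LenR. Libraries of a group lay within a narrow band, and the bands were well apart. The log2 fold change was 0.39 (SE 0.08, limma adjusted p = 0.012), and SCD went from rank 3 in WT to rank 1 in LenR by level among the 37 genes. Dropping WT replicate 1 or 2 ended the call, with limma adjusted p-values of 0.079 and 0.074 and the fold change still at 0.39.

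FASN, the fatty acid synthase, was at 116, 116 and 149 FPKM in WT and at 157, 177 and 117 FPKM in LenR. The groups overlapped: LenR replicate 3 lay at the WT level and WT replicate 3 approached the other 2 LenR libraries (log2 fold change 0.23, SE 0.17, limma adjusted p = 0.41). ACACA, the acetyl-CoA carboxylase that supplies malonyl-CoA, was left out of the test by its low mean. Its values were 0.503, 0.326 and 0.508 FPKM in WT and 0.229, 0.177 and 0.317 FPKM in LenR, without overlap. Tested with no minimum, its log2 fold change was −0.22 (adjusted p = 0.078). The gene length behind its FPKM was 22759 bases, against 13008 bases of exons in GENCODE 29, and a longer length gives a lower FPKM for the same reads. ACACA had between 64 and 201 reads in a library. How multiply matching reads were treated is not given in the sources used here, so its level and its difference between groups are uncertain.

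FADS1 and FADS2, desaturases of polyunsaturated fatty acids, went in opposite directions. FADS1 was at 44.5, 42.5 and 46.7 FPKM in WT and at 59.2, 63.6 and 58.8 FPKM in LenR, with no overlap (log2 fold change 0.43, SE 0.07, limma adjusted p = 0.0050). FADS2 was at 5.00, 5.12 and 5.86 FPKM in WT and at 3.14, 3.82 and 3.03 FPKM in LenR, again with no overlap (log2 fold change −0.55, SE 0.09, adjusted p = 0.0058). The FADS1 level divided by the FADS2 level was 8.38 ± 0.470 in WT and 18.3 ± 1.47 in LenR. The genes lie on opposite strands of chromosome 11, FADS1 at chr11:61799625-61829318 on the minus strand and FADS2 at chr11:61792980-61867354 on the plus strand (GENCODE 29, GRCh38). Their models overlap, and RefSeq places FADS2 starts between 599 and 800 bases inside FADS1. The strand setting of the counting is not given in the sources used here, so reads from the shared stretch cannot be assigned with certainty. FEN1 lies within the FADS2 model on the same strand. FADS3, the third desaturase of the cluster and not one of the 37 genes, rose from 7.59 ± 0.820 to 12.8 ± 2.22 FPKM (0.67, adjusted p = 0.010), with that call lost without LenR replicate 1 (0.060).

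ACSL3, which activates long-chain fatty acids on the endoplasmic reticulum and lipid droplets, was at 15.6, 14.9 and 13.5 FPKM in WT and at 8.22, 8.51 and 8.58 FPKM in LenR. The LenR libraries lay within a narrow band far below WT. The level fell by 0.73 on the log2 scale (SE 0.07, limma adjusted p = 0.00045), the strongest decrease of the 36 tested genes. The elongases ELOVL5 (log2 fold change 0.13, adjusted p = 0.27), ELOVL1 (0.07) and ELOVL6 (0.03) did not pass the test, although the groups did not overlap for ELOVL5. Over the 8 tested genes of this arm, 6 were above 0 and the median was 0.10.

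**Figure D3:**
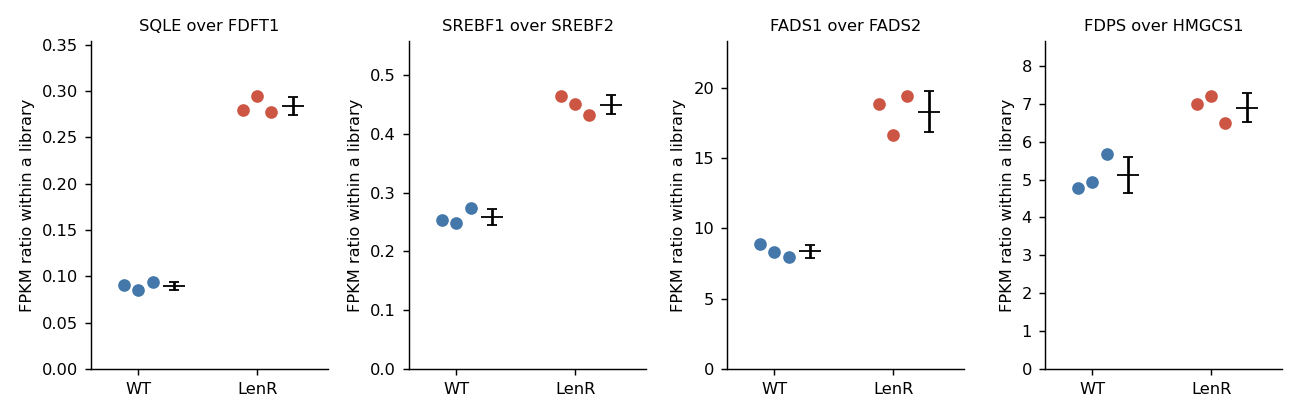
Ratios of FPKM values of 2 genes within the same library are shown for every library (points, replicates 1 to 3 from left to right) with the group mean ± SD (bars). SQLE over FDFT1, SREBF1 over SREBF2, FADS1 over FADS2 and FDPS over HMGCS1 were each higher in all 3 LenR libraries than in any WT library.

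Of the plotted ratios within libraries, FDPS over HMGCS1, a later against an earlier step on the way to squalene, was 5.12 ± 0.476 in WT and 6.90 ± 0.372 in LenR. SCD over FASN ranged from 1.97 to 2.47 in WT and from 2.23 to 3.21 in LenR, and INSIG1 over INSIG2 from 25.5 to 32.2 in WT and from 23.1 to 30.0 in LenR, so both overlapped between groups. These ratios were not tested.

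Of the 10 called genes, 2 lay in stretches of chromosome whose other genes moved the same way. Around ACSL3 (chr2:222860934-222944639, GENCODE 29, GRCh38), all 46 other tested genes within 5 Mb had negative log2 fold changes, with a median of −0.68 against −0.73 for ACSL3, and 40 of them passed the test. Around MVK (chr12:109573255-109598117), 75 of 76 such genes were above 0, with a median of 0.57 against 0.36 for MVK, and 70 passed. The part of these stretches in the values of ACSL3 and MVK was not tested. Without these 2 genes, 5 of 34 were called higher and 3 lower (23.5% in either direction, against 15.1% of all genes tested). MVK also overlaps MMAB on the other strand. Around SQLE on chromosome 8, the median of 28 neighbours was 0.05, with 17 above 0 and 7 past the test. Around SREBF1 the median of 59 neighbours was −0.01, with 29 above 0 and 6 past the test. Around HMGCS1, HSD17B7, NPC2, SCD, FADS1 and FADS2 the medians were between −0.09 and 0.07.

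**Figure D4:**
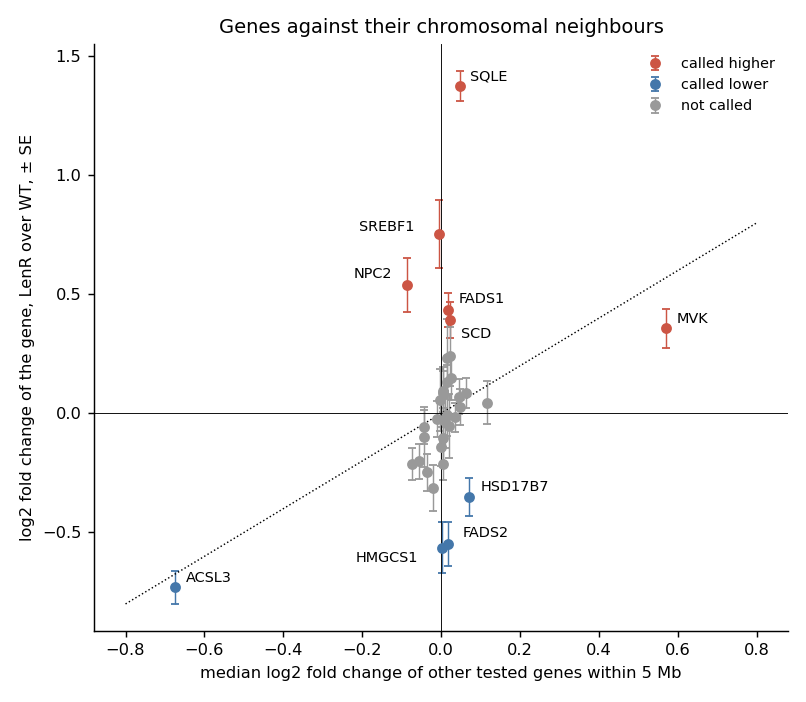
The log2 fold change of each of the 36 tested genes (y axis, ± SE) is plotted against the median of the other tested genes within 5 Mb (x axis), with a dotted line where the values are equal. ACSL3 and MVK lie at the far ends of the x axis, at −0.68 and 0.57, while SQLE, SREBF1, NPC2 and the other called genes lie near 0 on it.

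The 36 genes also differed between libraries of the same group, and in a shared pattern. The log2 distance of WT replicate 3 from the mean of WT replicates 1 and 2, and that of LenR replicate 2 from the mean of LenR replicates 1 and 3, had a correlation of 0.839 across the 36 genes, with the same sign in 29. Across all 11030 genes tested with a known GC content it was 0.691, with the same sign in 8433, so the pattern was not restricted to lipid genes. FASN (0.36 in WT replicate 3 and 0.38 in LenR replicate 2), SREBF1 (0.38 and 0.29) and SREBF2 (0.26 and 0.29) were high in both libraries. INSIG2 (−0.33 and −0.30), IDI1 (−0.33 and −0.26) and STARD4 (−0.41 and −0.18) were low in both. The distances went with the GC content of the transcript across the 36 genes, with a correlation of 0.818 for WT replicate 3 and 0.524 for LenR replicate 2. Across all 11030 genes these correlations were 0.515 and 0.258. These are correlations across genes of the same libraries, which share depth and base composition, and genes are not independent replicates. The 2 libraries compared are those that lay together on the second component, which came from these same values. A positive correlation between their distances therefore follows from how they were chosen and adds no separate evidence of a pattern.

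**Figure D5:**
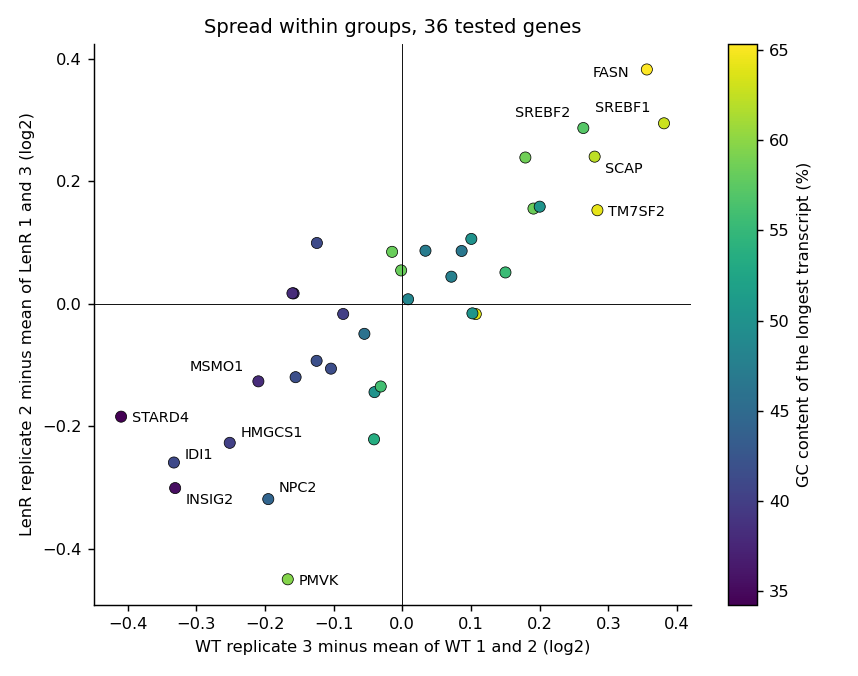
Each point is 1 of the 36 tested genes, with the log2 distance of WT replicate 3 from the mean of WT replicates 1 and 2 on the x axis, that of LenR replicate 2 from the mean of LenR replicates 1 and 3 on the y axis, and GC content of the longest transcript as colour. FASN, SREBF1, SREBF2, SCAP and TM7SF2 lie at the upper right, and STARD4, IDI1 and INSIG2 at the lower left.

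With both libraries left out, 10 of the 36 genes were called, and 1824 of all genes tested (16.2%): MVK was lost (limma adjusted p = 0.074) and MSMO1 was gained (log2 fold change −0.34, adjusted p = 0.033). With a term for these 2 libraries in the model, 15 were called, which added ACAT2, CYP51A1, FDFT1, MSMO1 and NSDHL, all lower in LenR. The labels do not set these 2 libraries apart, and they were picked by how their values lay. Calls added by the term are therefore not independent support for lower sterol genes. Removing each library's trend over GC content, an analysis chosen after seeing the data, called 16, with the same additions and ELOVL5 higher. In that analysis 9 genes were lower and 7 higher, and 3163 genes in all (28.1%) were called with the term and 2536 (23.0%) with the trend removed. The 5 added genes all act between acetyl-CoA and cholesterol, as do 14 of the 26 tested lipid genes that the main test did not call.

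A wider list of 74 lipid genes outside the 37 was also counted. Of these, 67 had values and 61 were tested, with 5 higher and 5 lower (16.4%, against 15.1% of all genes). None of the 7 genes of SREBP processing and none of the 10 genes of isoprenoid side branches was called, although 1 and 2 of them had an unadjusted p under 0.05. In sterol uptake and efflux, SCARB1, a receptor for high-density lipoprotein, rose from 25.0 ± 5.16 to 47.3 ± 7.25 FPKM (log2 fold change 0.90, limma adjusted p = 0.0068), with 65 of its 67 neighbours within 5 Mb also above 0. MYLIP, a ubiquitin ligase that targets lipoprotein receptors, rose from 3.95 ± 0.270 to 5.74 ± 0.430 FPKM (0.45, adjusted p = 0.0062). The list of acetyl-CoA supply and use held 6 genes, ACLY, ACSS2, SLC25A1, ME1, ACACB and MID1IP1, with values from 0.05 to 0.32. ACACB, an acetyl-CoA carboxylase, had the highest value (adjusted p = 0.088), and 77 of its 78 neighbours were also above 0. Of the 6, the malic enzyme ME1 was called (0.28, adjusted p = 0.037), a call lost in 9 of 21 alternatives, each of the 6 leave-one-library-out analyses included.

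The strongest change of the wider list was that of GPAT2, a glycerol-3-phosphate acyltransferase, at 16.3, 16.5 and 18.7 FPKM in WT and 5.16, 5.07 and 4.15 FPKM in LenR. The groups were far apart (log2 fold change −1.65, SE 0.09, limma adjusted p = 6.7e-05). DGAT2, which makes triglyceride, rose from 12.9 ± 0.845 to 21.6 ± 1.52 FPKM (0.70, adjusted p = 0.00088). LPIN3, a phosphatidate phosphatase, fell from 1.95 ± 0.228 to 0.769 ± 0.105 FPKM (−0.74, adjusted p = 0.0010). The acyl-CoA synthetase ACSL1 fell by 0.37 on the log2 scale (adjusted p = 0.0054), as its relative ACSL3 did by 0.73, and its 22 neighbours had a median of 0.13. CYB5A, the cytochrome b5 that passes electrons to desaturases, fell from 50.2 ± 3.91 to 34.9 ± 2.71 FPKM (−0.51, adjusted p = 0.0063).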

How the data were processed

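RNA-seq libraries, 3 for each of the 2 groups, were made from total RNA of MM.1S cells, per the labels' protocols. The authors deposited FPKM values for 12760 genes, 1 column per library. The submitters' processing notes name hg38, edgeR 3.40.2, featureCounts 2.0.3, HISAT2 2.2.1 and FastQC 0.11.9 but not what each did. For the annotation, the strand setting and the choice of expressed genes, the answer is not given in the sources used here.

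FPKM is comparable between genes only as far as the lengths used are right. Within a gene the 6 values were whole multiples of a step, which gave whole reads within 0.001 of a read for all 12760 genes (119 after multiplication by a common factor), and the median was 511 reads for a gene in 1 library. The 11276 genes averaging 1 FPKM or more (1484 fell below) were tested on log2(FPKM + 1) without further scaling, with group as the only term, by limma 3.58.1 with a trended empirical Bayes step, in R 4.3.3. Fold changes on this scale understate changes of low genes. Tests were two-sided, with Benjamini-Hochberg adjustment over all genes tested and a threshold of 0.05. A called gene passed it. SDs are over 3 libraries.

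The genes and lists were chosen with earlier results of these data known, so no p-value over a list was computed. All 37 genes are accounted for: called genes have every library's value, the others are named with their group, and of the wider list called genes could be named, though not every one is reported here. Positions came from GENCODE 29 (12426 genes, 97.4%), neighbours are other tested genes within 5 Mb, and promoter sequences came from RefSeq. In total 21 alternatives were run, including voom on the recovered reads, pseudocounts of 0.1 and 0.5, other filters and scalings, the replicate block and leaving out each library. Figures used Python 3.11.15 and matplotlib 3.10.9.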

Additional observations from a re-analysis of the deposited data

How the results depend on the processing

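Between 14500140 and 17387914 reads per library and 3 libraries per group limit which changes can pass the threshold. The main test called 1707 genes, 966 higher and 741 lower in LenR, and 10 of the 36 lipid genes, 6 higher and 4 lower. SQLE, ACSL3 and FADS2 kept their call in every alternative in which they were tested (21, 21 and 20), with a mean of at least 5 FPKM leaving FADS2 out. Voom on the recovered reads called 1771 genes (15.7% of those tested) and 11 of the 36 lipid genes. The labels do not say whether a replicate number marks libraries handled together. Same-numbered libraries had correlations of their deviations from the group means of 0.02, −0.56 and −0.68. With 3 libraries per group, and WT replicate 3 and LenR replicate 2 standing apart, these values cannot settle whether the numbers pair libraries. The replicate block called 907 genes (496 higher, 411 lower), or 8.04% of those tested. It called 4 of the 36 lipid genes, 2 higher (SQLE and SREBF1) and 2 lower (FADS2 and ACSL3). A mean of at least 5 FPKM, which tests fewer genes, called 1075 (601 higher, 474 lower) and moved the fatty acid median from 0.10 to 0.133. Averaging WT replicates 1 and 2, which leaves fewer samples, called 1055 (579 higher, 476 lower), or 9.36%. It called 7 of the 36 lipid genes, without HSD17B7, MVK and SCD. Giving WT replicate 3 and LenR replicate 2 a term of their own called 3163 (1729 higher, 1434 lower), or 28.1%. It called 15 of the 36 lipid genes, 9 of them lower. Removing the GC trend of each library called 2536 genes (23.0%), 1211 of them lower, and 16 of the 36 lipid genes, 9 of them lower. The cause of these differences was not tested.

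Leaving out 1 library at a time called between 1006 and 1562 genes (8.92% to 13.9%), between 545 and 919 higher and between 461 and 681 lower. The lipid genes called were between 6 (without WT replicate 1, or without LenR replicate 1) and 12 (without LenR replicate 3), with between 3 and 6 higher. Some genes that were not called changed sign. Without both WT replicate 3 and LenR replicate 2 the log2 fold change was 0.041 for PMVK, 0.0136 for MVD, 0.0519 for EBP and −0.0479 for ELOVL6. Under quantile normalization it was 0.0127 for INSIG1 and 0.0025 for SREBF2. Leaving out 1 library gave ranges of −0.172 to 0.0967 for PMVK, −0.111 to 0.0501 for MVD, −0.0142 to 0.122 for LSS, −0.0501 to 0.0656 for EBP, −0.0551 to 0.155 for INSIG2, −0.121 to 0.0659 for SREBF2, −0.0341 to 0.00833 for ABHD2 and −0.0148 to 0.0875 for ELOVL6. The early sterol median stayed between −0.18 and −0.06, the late one between −0.07 and −0.02 and the fatty acid one between 0.08 and 0.13 in all 21 alternatives.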
